A study of Homo sapiens with 6 samples.

Results

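The 10 genes described here encode the machinery that senses oxygen in human cells. They are the subunits of the hypoxia-inducible factors (HIF1A, EPAS1, HIF3A, ARNT and ARNT2), the HIF prolyl hydroxylases (EGLN1, EGLN2 and EGLN3), the asparaginyl hydroxylase FIH (HIF1AN) and the von Hippel-Lindau protein (VHL). They were chosen by symbol from the 28395 genes of the deposited comparison, and each of the 10 symbols had 1 row. RNA sequencing was done on A375 cells, an established human melanoma line labelled wild type, after 6 h with either 0.01% ozonated olive oil (OZO) or 0.01% olive oil (OLO, its non-ozonated precursor, the control). There were 3 libraries in each group, described in the study as independent experiments, although the labels give no culture or date for them. A single cell line was used. The file holds the fold change, mean level and moderated t of every gene while values per library were not analysed here, so neither the spread within a group nor overlap between groups can be given. Each difference therefore carries the standard error (SE) and adjusted p of the authors' limma-voom fit (n = 3 per group).

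A HIF is a pair of proteins. The alpha subunit is made continuously and destroyed continuously while oxygen is present, because prolyl hydroxylases, which need oxygen, iron and 2-oxoglutarate, mark it for the VHL ubiquitin ligase. FIH places a further hydroxyl group that keeps the alpha subunit from binding its coactivators. When hydroxylation stops, the alpha subunit accumulates, pairs with ARNT and binds DNA at the hypoxia response element, whose core reads ACGTG or GCGTG. EGLN1 and EGLN3 are themselves known HIF targets, an arrangement that works as negative feedback. Most of this control acts on protein, which was not measured in these libraries.

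Of the 10 genes, 2 rose (EGLN1 and EGLN3), 1 fell (VHL) and 7 did not pass an adjusted p under 0.05. Among all 28395 genes, 7.04% passed in either direction, 3.98% as higher and 3.06% as lower in OZO. Where the mean was 10 reads per library or more, as for 8 of the 10 genes, 13.6% of genes passed. The same 3 genes had an unadjusted p under 0.05. No alpha subunit and no beta subunit passed the test, while both prolyl hydroxylases that were read above the floor did.

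Promoter sequences are shown for the prolyl hydroxylases that rose and for the main alpha subunits. They were searched for the response element described above, and whether a HIF acted on any of these genes was not tested. Each is the 250 bases before the RefSeq start of the gene (GRCh38.p14), written 5′ to 3′ on the gene's strand, with hypoxia response element cores in capitals. Both cores were searched on both strands. EGLN1 lies on the minus strand at chr1:231422288-231422537, EGLN3 on the minus strand at chr14:33951075-33951324, HIF1A on the plus strand at chr14:61695263-61695512 and EPAS1 on the plus strand at chr2:46297157-46297406.
EGLN1: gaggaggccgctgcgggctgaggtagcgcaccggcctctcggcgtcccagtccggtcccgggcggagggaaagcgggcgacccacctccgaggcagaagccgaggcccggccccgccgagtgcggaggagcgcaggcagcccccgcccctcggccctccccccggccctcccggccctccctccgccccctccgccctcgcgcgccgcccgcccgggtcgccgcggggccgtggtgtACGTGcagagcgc
EGLN3: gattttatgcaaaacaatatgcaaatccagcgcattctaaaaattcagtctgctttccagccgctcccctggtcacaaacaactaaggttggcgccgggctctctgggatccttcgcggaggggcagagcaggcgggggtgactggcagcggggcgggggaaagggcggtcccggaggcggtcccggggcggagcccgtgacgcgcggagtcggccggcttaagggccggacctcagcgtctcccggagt
HIF1A: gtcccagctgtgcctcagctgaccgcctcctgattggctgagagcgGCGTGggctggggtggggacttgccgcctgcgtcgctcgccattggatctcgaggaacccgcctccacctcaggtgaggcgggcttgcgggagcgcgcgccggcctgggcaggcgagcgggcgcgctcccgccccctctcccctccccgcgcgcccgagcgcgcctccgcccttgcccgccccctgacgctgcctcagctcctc
EPAS1: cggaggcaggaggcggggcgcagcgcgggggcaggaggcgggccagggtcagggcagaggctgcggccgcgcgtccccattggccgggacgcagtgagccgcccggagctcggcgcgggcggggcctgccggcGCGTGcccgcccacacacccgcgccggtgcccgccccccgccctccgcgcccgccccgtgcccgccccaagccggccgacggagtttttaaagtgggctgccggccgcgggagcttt

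The EGLN1 stretch held 1 core, ACGTG, from base -13 to base -9 counted from the start site. The EGLN3 stretch held none. The stretches of HIF1A and EPAS1 each held 1 GCGTG, at -204 to -200 and at -117 to -113. RefSeq windows of 300 bases (250 before and 50 after the start) were at hand for 8 of the 10 genes, not for ARNT2 or VHL. Of their 12 windows 5 (41.7%) held a core, against 48.4% of all 35116 windows. The other windows with a core were the first one of HIF3A, with 3, and the first one of EGLN2, where ACGTG at -48 to -44 overlaps its own reverse complement CACGT at -49 to -45. A match of 5 letters is a description and not a binding site.

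HIF1A, the widely expressed alpha subunit (chromosome 14, 61695513 to 61748258), had a level of 265 CPM (counts scaled to library size) in OLO and 292 CPM in OZO. Its log2 fold change was 0.14 (SE 0.14, limma-voom adjusted p = 0.519). The 95% interval ran from 0.86-fold to 1.42-fold, so a change of the size seen for EGLN1 lay outside it. EPAS1, which encodes HIF-2 alpha (chromosome 2, 46297407 to 46386697), stood at 5.66 CPM in OLO and 7.69 CPM in OZO. That difference, 0.44 on the log2 scale with an SE of 0.31, had an adjusted p of 0.351 in limma-voom. Its interval, 0.78-fold to 2.38-fold, was the widest of the 5 uncalled genes above the floor, and it includes a 2-fold rise. HIF3A, an alpha subunit with isoforms known to restrain the other two (chromosome 19, 46297042 to 46343433), had no read in any of the 6 libraries. A count of 0 allows up to 3 reads per library, or 0.163 CPM, and no fold is given. Per kilobase of canonical transcript, the mean HIF1A level was 55.1 times that of EPAS1, with a ratio of 61.2 in OLO and 49.6 in OZO, so HIF1A made up nearly all alpha-subunit mRNA in both groups.

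The beta subunits were present and were not called. ARNT, the usual partner of the alpha subunits (chromosome 1, 150809713 to 150876599), had 55.7 CPM in OLO and 62.7 CPM in OZO. Its log2 fold change was 0.17 with an SE of 0.091, and the limma-voom adjusted p was 0.249. ARNT2, a relative best known from neurons (chromosome 15, 80404382 to 80597933), had 14.4 CPM in both groups. The log2 difference was 0.0021 (SE 0.15, limma-voom adjusted p = 0.993), with an interval from 0.77-fold to 1.30-fold. Changes of 2-fold in either direction lay outside the intervals of both genes. Per kilobase, the mean ARNT level was 5.67 times that of ARNT2, and the mean HIF1A level was 5.62 times that of ARNT.

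**Figure D1:**
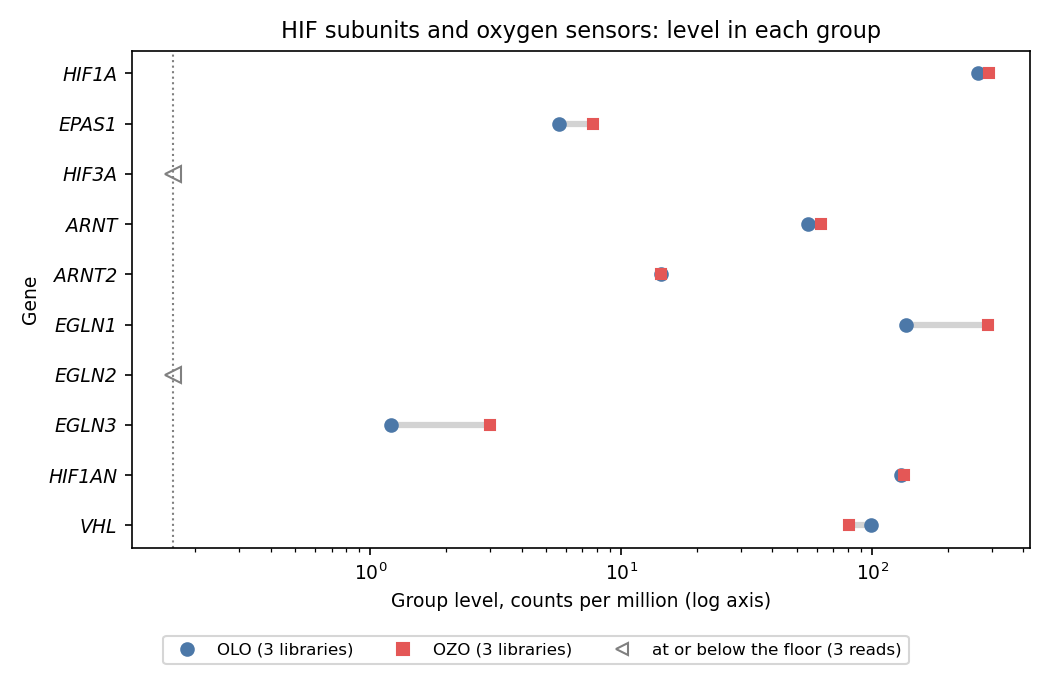
Level of each of the 10 genes in OLO (circles) and OZO (squares), in CPM on a log axis, derived from the mean level and the fold change of 3 libraries per group, with no error bar because group spreads were not analysed here. Open triangles mark HIF3A and EGLN2, at or below the floor of 0.163 CPM (dotted line), and the longest gaps between groups are those of EGLN1 and EGLN3.

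EGLN1, or PHD2, the main HIF prolyl hydroxylase in most cells (chromosome 1, 231363756 to 231422287), had 136 CPM in OLO and 289 CPM in OZO. At the mean library size this corresponds to 2507 and 5321 reads. The log2 fold change was 1.09 (SE 0.050, limma-voom adjusted p = 0.00296), a 2.12-fold rise with a 95% interval from 1.94-fold to 2.32-fold. Its p-value was number 35 in order of size among the 28395 genes. The difference was 21.7 times its standard error, which made EGLN1 the most precisely separated of the 10 genes.

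EGLN3, or PHD3, an enzyme known for strong induction by hypoxia in many cell types (chromosome 14, 33924227 to 33951074), rose from a far lower level. It had 1.21 CPM in OLO and 3.01 CPM in OZO, corresponding to 21.7 and 54.9 reads. The log2 fold change was 1.32 (SE 0.24, limma-voom adjusted p = 0.0451), and the interval ran from 1.62-fold to 3.84-fold. That interval contains the whole interval of EGLN1, and the difference between these fold changes was not tested. Its call lies close to the threshold. With the median over the whole table subtracted from every fold change, the adjusted p of EGLN3 was 0.0502 (limma statistics) and the call was lost. With the median of genes averaging 10 reads or more subtracted instead, it was 0.0444 (limma statistics) and the call was kept. The first of these medians includes genes with no counted read, as described below. Per kilobase of transcript EGLN1 supplied 98.6% of the EGLN1 and EGLN3 mRNA in OLO and 98.4% in OZO. EGLN1 thus outweighed EGLN3 by a similar margin in both groups.

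EGLN2, or PHD1, a hydroxylase found in many tissues and known to be induced by oestrogen (chromosome 19, 40799191 to 40808434), was listed with a mean of only 0.59 reads per library. Its mean level corresponds to a product of 105 over the libraries, each library counting as 2 times its reads plus 1. Taken alone, that product allows between 6 and 52 reads in total, in 1 to 3 of the 6 libraries. The difference between groups, which would narrow this range, was not used. Both groups were under the floor, so no fold is given. The value is uncertain because EGLN2 overlaps another gene. The read-through gene RAB4B-EGLN2 (chromosome 19, 40778219 to 40808441) covers EGLN2 from end to end on the same strand, and its exons contain 95.8% of the 2100 bases of the canonical EGLN2 transcript in GENCODE 44. RAB4B-EGLN2 itself had 2 reads in 1 library. RAB4B (chromosome 19, 40778247 to 40796942), a small GTPase gene that shares 67.8% of its canonical transcript with the read-through gene, had none. All 3 genes of the locus were thus at or near 0 together.

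**Figure D2:**
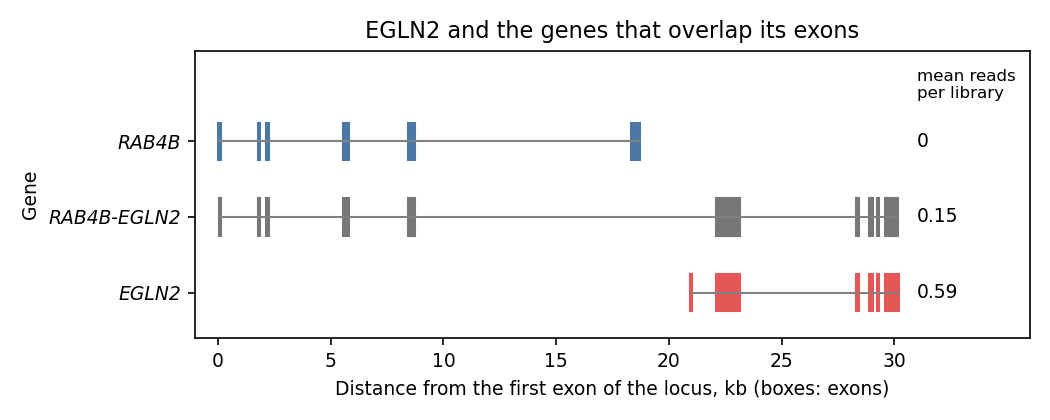
Exons (boxes) of the canonical transcripts of RAB4B and EGLN2 and of the read-through gene RAB4B-EGLN2, as distance in kb from the first exon, with the mean reads per library at the right. Every EGLN2 exon but the first is also, in whole or in large part, an exon of the read-through gene, and the genes, from top to bottom, had means of 0, 0.15 and 0.59 reads.

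How reads within such shared exons were assigned is not stated in the sources used here. The table held 108 read-through genes, named for the genes they join. Of the 214 protein-coding genes that overlap a read-through gene naming them, 39.7% had a mean of at most 3 reads, against 29.1% of the 18957 other protein-coding genes, and the median was 7.26 reads against 114 reads. Whether shared exons account for the EGLN2 value was not tested. The value cannot be read as absence of EGLN2 mRNA.

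HIF1AN, the gene of FIH (chromosome 10, 100535943 to 100559998), had the smallest standard error of the 8 genes above the floor. Its level was 131 CPM in OLO and 134 CPM in OZO. The log2 fold change was 0.032 (SE 0.037, limma-voom adjusted p = 0.603), with an interval from 0.96-fold to 1.09-fold. A change of EGLN1's size lay far outside that interval. On the per kilobase scale, the ratio of EGLN1 to HIF1AN went from 3.11 in OLO to 6.45 in OZO. The HIF1AN part of that ratio depends on its long canonical transcript (12927 bases).

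VHL, the substrate receptor of the ubiquitin ligase that binds hydroxylated alpha subunits (chromosome 3, 10141778 to 10153667), was the single member that fell. It had 98.5 CPM in OLO and 81.1 CPM in OZO. VHL fell by 0.28 on the log2 scale (SE 0.049, limma-voom adjusted p = 0.0397), a change of -17.7% with an interval from -24.6% to -10.1%. The fall was small against the rise of EGLN1, and it lost its call when a 2-fold minimum was required. Per kilobase, the ratio of VHL to HIF1A was 0.33 in OLO and 0.25 in OZO, and that of EGLN1 to HIF1A was 0.47 and 0.90. The error of these ratios is not known here, and they were not tested.

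**Figure D3:**
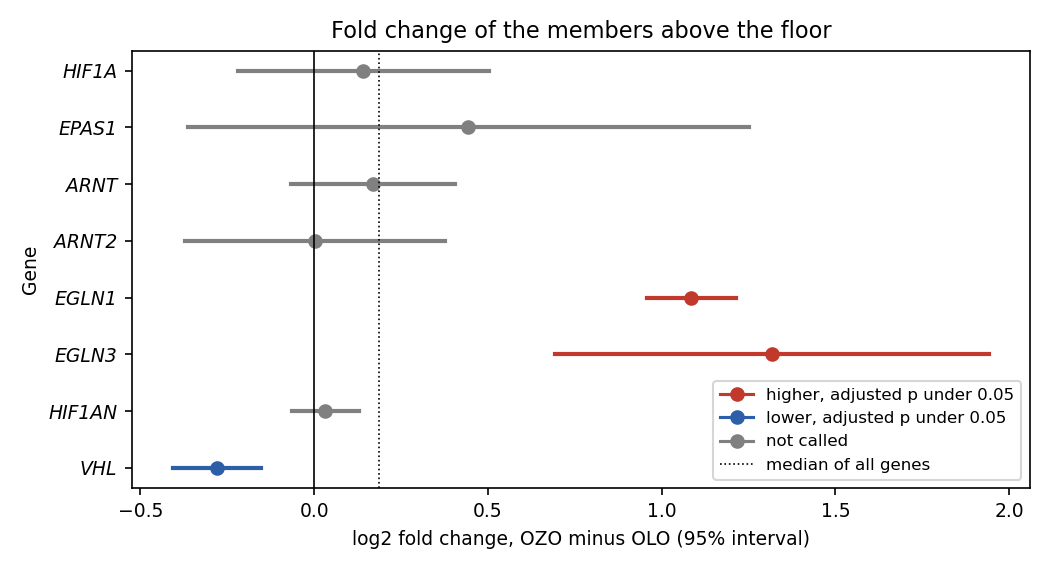
The log2 fold change (OZO minus OLO) of the 8 members above the floor, with 95% intervals from the limma-voom fit (3 libraries per group). EGLN1 and EGLN3 lie wholly to the right of 0 and VHL wholly to the left, while the intervals of the other 5 genes include 0. The dotted line is the median of all genes, 0.19.

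The order of mean levels per kilobase of canonical transcript was HIF1A with 70.5 CPM, EGLN1 with 45.8 CPM, VHL with 20.2 CPM, ARNT with 12.5 CPM, HIF1AN with 10.2 CPM, ARNT2 with 2.21 CPM, EPAS1 with 1.28 CPM and EGLN3 with 0.70 CPM. The spread of these levels over libraries is not known here, so close neighbours such as ARNT and HIF1AN cannot be separated. Members also differed in precision. The standard error of a log2 fold change was between 0.037 and 0.050 for HIF1AN, VHL and EGLN1, but 0.14 for HIF1A, although HIF1A had the most reads (a mean of 5119 per library).

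**Figure D4:**
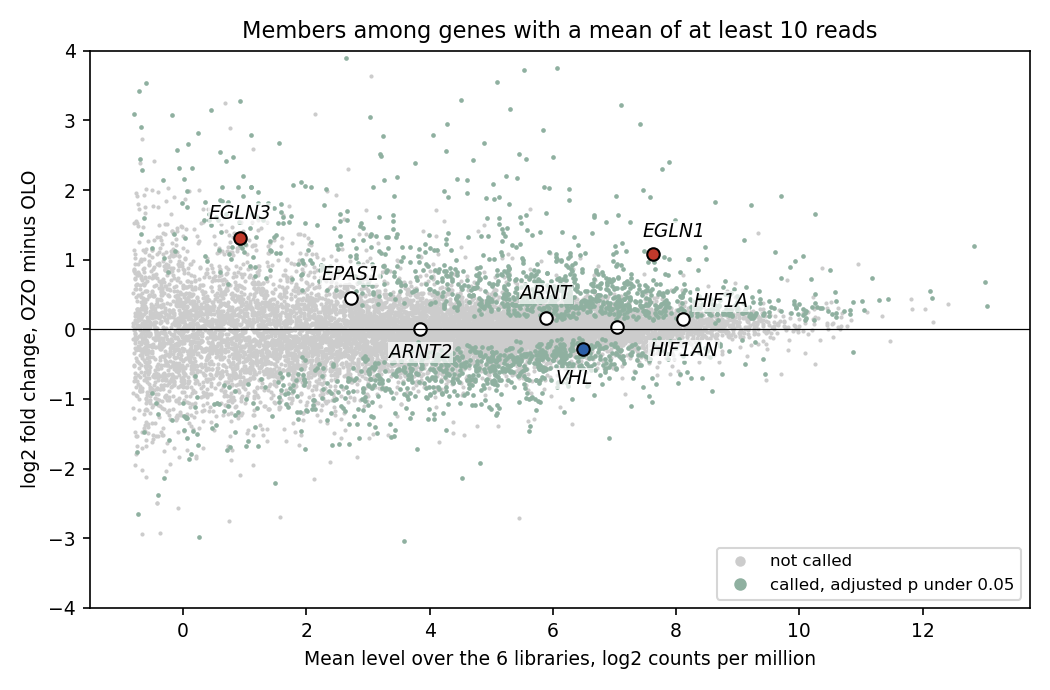
Log2 fold change against mean level for the 13773 genes that averaged 10 reads or more, with the 8 members among them marked (red rose, blue fell, white not called). EGLN1 stands at 1.09 among highly expressed genes near 0, EGLN3 at 1.32 among weakly expressed genes with wide scatter. A further 7 genes lie beyond the vertical range of 4.

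The scale on which these changes are read matters. The 7012 genes with no read in any library carry a log2 fold change of 0.33 in this fit, a value with no counted read behind it. The median over all genes, these included, was 0.19, against -0.0061 over genes that averaged 10 reads or more. The second median rests on counted reads and is very small, so for those genes the fit was already nearly centred. Against the first of these medians, the small positive values of HIF1A, ARNT, ARNT2 and HIF1AN became negative and uncalled. Against the second they stayed positive and uncalled. EGLN1 remained higher and VHL remained lower under both centrings.

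The rest of the VHL ligase and the factors that turn over HIFs or their hydroxylases were then described from a list of 14 genes. In it 3 rose, 1 fell and 10 did not pass, so that 4 of 14 were called against 7.04% of all genes and 13.6% of genes averaging 10 reads or more, to which 13 of the 14 belong. These shares are descriptions with no test, and the median log2 fold change was 0.13, or 0.11 with the gene at the floor set to no change. The gene that fell was CUL2, the cullin scaffold that holds VHL in the ligase. It had 105 CPM in OLO and fell by 0.27 on the log2 scale (SE 0.033, limma-voom adjusted p = 0.0162), close in size to VHL. The adaptor genes ELOB and ELOC, which link VHL to CUL2, had log2 fold changes of 0.0037 (SE 0.090) and 0.023 (SE 0.083). RBX1, the RING subunit, had 0.056 (SE 0.087). None of these 3 passed, with limma-voom adjusted p of 0.980, 0.864 and 0.698. Of the genes of the ligase, the receptor and the scaffold fell and the others were not called.

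Among turnover factors outside the ligase, both cytosolic HSP90 genes rose. HSP90 is a chaperone that protects the HIF-1 alpha protein independently of VHL. HSP90AA1 had a log2 fold change of 0.68 (SE 0.052, limma-voom adjusted p = 0.0077) and HSP90AB1 one of 0.44 (SE 0.031, limma-voom adjusted p = 0.00636). RACK1, which competes with HSP90 for the alpha subunit and promotes its degradation, also rose, by 0.20 (SE 0.029, limma-voom adjusted p = 0.0252). Chaperone and ribosomal protein genes outside the list were called higher too, such as HSPA8 (1.20), HSPH1 (0.84) and RPS4X (0.24). Neither set was examined in full here, and the HSP90 and RACK1 rises were not shown to be particular to HIF turnover. With the whole-table median subtracted, the list held 2 higher and 2 lower calls instead of 3 and 1. The lower ones were CUL2 and COPS5, a subunit of the COP9 signalosome. RACK1, whose own value of 0.20 is close to the whole-table median, was no longer called. Centred on genes averaging 10 reads or more, the list kept 3 higher and 1 lower. SIAH2, a ligase known to destabilise the EGLN2 and EGLN3 proteins, had a log2 fold change of 0.45 with an SE of 0.13, and its limma-voom adjusted p was 0.141. P4HTM, a transmembrane relative of the prolyl hydroxylases, was at the floor in both groups.

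Of 9 transcription partners, 1 rose and 8 did not pass (median 0.17), a share near the 13.6% called among genes averaging 10 reads or more. The gene that rose was EP300, the acetyltransferase coactivator whose contact with the alpha subunit FIH blocks. EP300 went from 101 CPM to a level higher by 0.62 on the log2 scale (SE 0.036, limma-voom adjusted p = 0.00446). Its close relative CREBBP had 0.17 (SE 0.059, limma-voom adjusted p = 0.208). CITED2, a HIF target that competes with the alpha subunit for the same coactivator domain, had 0.23 (SE 0.28, limma-voom adjusted p = 0.607).

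HIF subunits belong to the bHLH-PAS family of transcription factors, and 11 relatives outside the members were listed. In the limma-voom fit 0 of the 11 were called at an adjusted p under 0.05, with a median log2 fold change of 0.062, or 0 with the 2 genes at the floor in both groups set to no change and NPAS3 to its bound. AHR, the dioxin receptor, which also pairs with ARNT, had 0.24 (SE 0.16, limma-voom adjusted p = 0.308). CLOCK had -0.084 with an SE of 0.033 and an adjusted p of 0.249. It was the single relative with an unadjusted p under 0.05, and -0.084 was also the median of the 9 relatives above the floor.

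A list of 40 known HIF targets gives the background against which EGLN1 and EGLN3, both in it, can be placed. Of the 40, 29 rose, 0 fell and 11 did not pass, against 3.98% of all genes higher. Among genes averaging 10 reads or more, to which 38 of the 40 belong, 13.6% were called in either direction. By an unadjusted p under 0.05 in limma-voom, 0 of the 40 fell as well. STC2 and CA12 had negative values, -0.43 (SE 0.36) and -0.40 (SE 0.46). The list was written with earlier results of these data known, so this count is no independent evidence of its direction. Without EGLN1 and EGLN3, 27 of 38 rose and the median log2 fold change was 1.04, also with CA9 at its bound and PPP1R3C, at the floor, at no change. Of these 27, 18 had a larger log2 fold change than EGLN1 and 15 a larger one than EGLN3. The rise of EGLN1 was thus moderate in size for a called target, but only 1 of the 27 had a smaller standard error and 2 a smaller p. The called targets with the smallest p, apart from EGLN1, were KDM3A (histone demethylase), MT1X (metallothionein), SLC2A3 (glucose transporter GLUT3) and PFKFB3 (regulator of glycolysis). KDM3A went from 88.5 to 352 CPM (log2 fold change 1.99, SE 0.085, limma-voom adjusted p = 0.00296). MT1X went from 6.30 to 43.8 CPM, a 6.94-fold rise, and SLC2A3 from 61.4 to 471 CPM, a 7.68-fold rise (limma-voom adjusted p = 0.00296 and 0.00302). MT2A, a metallothionein outside the list, was also called higher (log2 fold change 1.19, limma-voom adjusted p = 0.0385), and other metallothioneins were not examined. A place in the list does not show that a HIF raised a gene, which was not tested. PFKFB3, at 53.2 CPM in OLO and 114 CPM in OZO, rose 2.14-fold, close to EGLN1. VEGFA, the classical angiogenic HIF target, had 0.56 and did not pass (limma-voom adjusted p = 0.135).

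**Figure D5:**
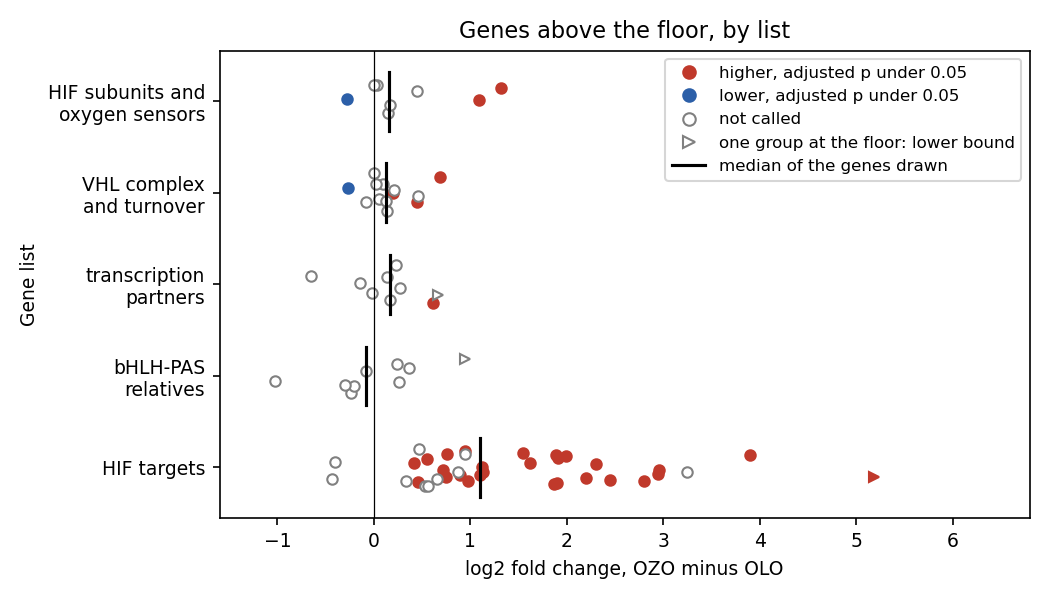
Log2 fold change (OZO minus OLO) of each gene above the floor in the members and in 4 lists, with filled points for genes called at an adjusted p under 0.05 and a bar at the median of the points drawn. HIF targets are shown without EGLN1 and EGLN3, and triangles are lower bounds. Every list spans 0, the HIF targets through STC2 and CA12, which were not called. The called targets all lie above 0, as does EP300, the 1 called transcription partner.

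Windows of 300 bases at the starts of 34 of the 38 listed targets that are no members held a core in 43 of 47 cases, or 91.5%, against the 48.4% of all windows. Many HIF targets are known through this very element, and some windows belong to the same gene, so the share is a description of the list and no evidence from these libraries. ACGTG alone, the version found in EGLN1, was in 68.1% of the target windows and in 21.4% of all windows. EGLN1 thus shared this letter string with most of the listed targets and EGLN3 did not, within these windows only.

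Antisense genes overlap HIF1A, and the use of strand in counting is not stated. HIF1A-AS1 had a mean of 1.07 reads and HIF1A-AS2 2.06 reads per library, against 5119 for HIF1A. Of the melanocyte and melanoma markers, SOX10 had 49.9 CPM and MITF 27.1 CPM on average, while TYR had no read and PMEL a mean of 5.75 reads, and 0 of the 8 markers were called (limma-voom, adjusted p under 0.05), nor did any have an unadjusted p under 0.05. Their summed level was 107 CPM in OLO and 69.1 CPM in OZO, a gap carried mostly by SOX10 alone (68.7 and 36.3 CPM, log2 SE 0.54, limma-voom adjusted p = 0.271), while MLANA and DCT had positive log2 fold changes of 0.70 (SE 0.35) and 0.49 (SE 1.03). The leukocyte markers PTPRC and CD3E were under the floor in both groups. Of the other markers, KRT14 (77.5 reads), LUM (87.6 reads), COL1A1 (22.3 reads) and PECAM1 (19.5 reads) had means over 10 reads and were not called, and their part in the results was not tested. In bulk RNA, fewer cells that carry a transcript and less of it per cell cannot be told apart.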

How the data were processed

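Total RNA of A375 cells was made into directional libraries and sequenced in paired-end mode. Per the study's methods and processing notes, the authors aligned reads to hg38 with HISAT2 2.1.0, counted them per gene with featureCounts 2.1.1 and compared groups with limma-voom 3.58.1. The log2 values deposited are a fold change, treated minus control (read as OZO minus OLO), and the mean log2 CPM, with 0.5 added to each count. The deposited score is the moderated t. The deposited p-value and its Benjamini-Hochberg adjustment over all 28395 genes are the authors' own, and no test across libraries was run here.

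The SE is the fold change divided by t, and 95% intervals used the degrees of freedom that link t and p (5.02 to 5.24). Group levels are the mean level plus or minus 0.5 times the fold change, which ignores voom's weights. Reads refer to a library of 18409903 fragments, the geometric mean size implied by unread genes, where 100% of the 13414 lowest genes matched odd whole products within 1%. The depth of each library is unknown here. The floor was 3 reads, for counting error only. Coordinates are from RefSeq (GRCh38.p14, the assembly of hg38) and transcript lengths from GENCODE 44. Procedures were tested on simulated data. Python 3.11.15, pandas 2.3.3 and scipy 1.17.1 were used.

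Members and lists were chosen with earlier results of these data known. All 10 members were named, with every called gene of the VHL complex and turnover, transcription partner and bHLH-PAS lists, and the 5 called HIF targets with the smallest p. Other genes were named after their values were seen.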

Additional observations from a re-analysis of the deposited data

How the results depend on the processing

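No paired analysis was possible because the table holds the comparison only. For the same reason edgeR, DESeq2, other pseudocounts and leaving out replicates were not run, so how far 1 library decides a call is unknown. The adjustment over genes with a read was added after seeing the data.

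The 3 called members became 1 (EGLN1) at an adjusted p under 0.01 and were 2 or 3 otherwise: VHL was lost with a 2-fold minimum and EGLN3 after subtracting the whole-table median. That median includes the genes with no read. Across settings the adjusted p ranged from 0.00147 to 0.00403 for EGLN1, from 0.0233 to 0.0502 for EGLN3 and from 0.0097 to 0.0419 for VHL. Centring on all genes turned HIF1A to -0.044, ARNT to -0.017, ARNT2 to -0.18 and HIF1AN to -0.15, with adjusted p of 0.840, 0.908, 0.596 and 0.0683. At an adjusted p under 0.01, 2 genes of the VHL complex and turnover list (HSP90AA1 and HSP90AB1) and 10 HIF targets were called. With a 2-fold minimum, 0 genes of that list and 0 transcription partners were. Centred on all genes, 1 bHLH-PAS relative (CLOCK) was called, lower, and centred on genes averaging 10 reads or more, 0 were. ACGTG alone was in 21.4% and GCGTG alone in 36.5% of promoter windows.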
